A study of Mus musculus with 10 samples.

Results

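Aminoacyl-tRNA synthetases of the cytosol and genes of the amino acid stress response were followed in nascent RNA over 6 hours of SOX2 loss. The members were 39 genes given by symbol, of which 20 encode synthetases, 11 are stress and transport genes, and 8 encode enzymes that make amino acids or the one-carbon units tied to serine. A member was kept where its transcribed unit (TU, a stretch of continuous nascent transcription on 1 strand, introns included) held more than 10 fragments in at least 2 of the 10 libraries. This left 37 of 39 genes among 28459 tested TUs, 14997 of which carry a gene symbol: 19 of 20 synthetases, 10 of 11 stress and transport genes and 8 of 8 synthesis genes. The other 2, Kars and Ddit3, had no TU under their own symbol. Kars lay wholly inside a TU without a symbol that also covered Adat1, and Ddit3 wholly inside the TU of Dctn2.

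Nascent RNA was read with TT_chem-seq, in which 4-thiouridine (4SU) marks RNA made during a short pulse and the marked fragments are captured and sequenced. All 10 libraries came from SOX2-FKBP cells, embryonic stem cells of the mouse line E14 in which both alleles of Sox2 carry the tag (homozygous clones, per the study's methods), grown without feeder cells on gelatin in serum-free medium with LIF and inhibitors of MEK and GSK3. The FKBP tag lets the small molecule dTAG-13 send SOX2 to degradation, and the untreated controls carried the tag too. The 5 groups of 2 replicates were NT (DMSO) and 0.5, 1, 2 and 6 hours post depletion (hpd) with 500 nM dTAG-13, each labelled with 2 mM 4SU for 10 min. Untagged cells given dTAG-13 were not analysed here, so loss of SOX2 and other effects of the compound cannot be told apart. Per the study's methods, cells got fresh medium before treatment, and depletion was started at different times before harvest at the end. Whether time in fresh medium differed between groups is not given, and its part in the members' changes was not tested. The sources used here do not say whether the 2 replicates of a group were separate cultures, so p-values measure the spread between these libraries, which may be technical.

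Most synthetases join 1 amino acid to its tRNAs, and the cytosolic enzymes load the tRNAs used by most ribosomes. When amino acids run short, uncharged tRNA activates the kinase GCN2, which phosphorylates eIF2, slows translation and favours translation of ATF4. ATF4 pairs with C/EBP factors, among them CEBPB and CHOP (the product of Ddit3), and binds elements at genes for amino acid import, serine and asparagine synthesis, stress regulators and many synthetases. Nascent RNA reads transcription of these genes, Atf4 included, but not the step of translation at which ATF4 itself is mainly controlled.

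The promoters show which members carry the core of this C/EBP-ATF element, and 6 stretches in which a match lies upstream of the start are printed. In the RefSeq table of promoters (GRCm38.p6, 250 bases before to 50 after each start), 30 of 39 members had an entry. The core TGATGNAA, searched on both strands, was found in 10 of 32 member promoters (31.3%) and in 3.97% of all 32851 promoters. By class it was found in 5 of 12 synthetase, 3 of 11 stress and transport and 2 of 9 synthesis promoters. CCAAT, a common promoter element whose letters are not part of that core, was found in 56.3% of member promoters and 37.4% of all. Each stretch runs 5′ to 3′ on the gene's strand, and capitals mark the core, shown as its reverse complement where it lies on the other strand.
Chac1 (chr2:119351038-119351067, plus strand): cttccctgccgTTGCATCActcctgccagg
Slc7a11 (chr3:50443651-50443680, minus strand): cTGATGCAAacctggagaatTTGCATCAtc
Asns (chr6:7693214-7693243, minus strand): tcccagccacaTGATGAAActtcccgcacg
Pycr1 (chr11:120643833-120643862, minus strand): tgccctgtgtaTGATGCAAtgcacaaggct
Gars (chr6:55037960-55037989, plus strand): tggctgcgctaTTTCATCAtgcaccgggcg
Tars (chr15:11399655-11399684, minus strand): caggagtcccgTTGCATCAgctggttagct
The cores began 193 bases upstream of the start in Chac1, 103 in Pycr1, 30 in Gars, 23 in Asns and 15 in Tars, and Slc7a11 held 2 of them. In Trib3, Iars and Yars the only match lay just downstream of the start. Of the 6 members called at 6 hpd, Phgdh, Psat1, Psph, Shmt2 and Sesn2 had no match in this window, and Slc7a5 had no entry. A match is a run of letters and was not tested for binding.

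Library totals ran from 11131490 to 25854106 fragments, and levels are given in CPM, the fragment count scaled to the TMM-adjusted size of the library. All 10 stem cell markers were tested and summed to 4433 to 4859 CPM in NT and 3816 to 4063 CPM at 6 hpd. Klf2, a pluripotency gene, had 76.9 to 79.1 CPM in NT and 5.26 to 13.5 CPM in the depleted libraries, whereas Sox2 RNA, which does not report the loss of its protein, had 243 to 283 and 229 to 288 CPM. Of the fibroblast markers, 2 of 6 were tested and their sum went from 9.45 CPM in the lowest NT library to 42.3 CPM in the highest at 6 hpd, nearly all of it from Pdgfrb, while Col1a1 stayed at or below 1.16 CPM. The 2 tested of 4 mesoderm markers summed to 2.89 to 3.05 CPM in NT, 7.26 to 9.58 CPM from 0.5 to 2 hpd and 3.79 to 3.90 CPM at 6 hpd, and the 4 tested of 5 primitive endoderm markers to 3.85 to 4.71 CPM in NT and 6.46 to 7.28 CPM at 6 hpd. The 1 tested of 4 trophoblast markers, Tfap2c, had 36.8 to 44.2 CPM in NT and 20.7 to 25.1 CPM at 6 hpd, and the 1 tested of 3 neural markers, Pax6, had 9.29 to 14.2 CPM in NT and 17.1 to 17.6 CPM at 0.5 hpd, and overlapped with NT later. The part of these markers in the members' changes was not tested. In NT, replicate 1 was above replicate 2 in 35 of 37 members, against 65.2% of TUs with a symbol and 50.2% of all tested TUs. At 0.5, 1, 2 and 6 hpd it was above in 18, 26, 28 and 28 of 37 members, against 53.2%, 57.0%, 55.4% and 48.0% of TUs with a symbol.

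Calls fell in 2 of the 3 classes. They were made in edgeR's quasi-likelihood test where the p adjusted over all tested TUs (Benjamini-Hochberg) was under 0.05. None of the 19 synthetases was called in either direction at any time, whereas 2 of 10 stress and transport genes and 4 of 8 synthesis genes fell at 6 hpd, when 9.2% of tested TUs were called down and 6.61% up. These 6 genes were the amino acid transporter Slc7a5, the stress gene Sesn2, and the serine and one-carbon enzymes Phgdh, Psat1, Psph and Shmt2. Of the 14997 tested TUs with a symbol, as all members have, 1162 were called down and 1556 up at 6 hpd. Before 6 hpd none of the 37 members was called, while the share of tested TUs called down was 0.787%, 3.61% and 5.57% at 0.5, 1 and 2 hpd, and that called up 0.527%, 2.15% and 4.26%. These counts come from the fit without a replicate block. With the replicate number as a block, 1 synthetase fell at 6 hpd, and members of the other 2 classes were called before 6 hpd (given below). DESeq2 called 1 member before 6 hpd, Asns at 0.5 hpd (log2 fold change -0.44, adjusted p 0.029), and at 6 hpd the 4 genes Slc7a5, Sesn2, Phgdh and Psat1. At an unadjusted p under 0.05, edgeR had 8, 3, 6 and 13 of 37 members in order of time, beside 9.61%, 18.0%, 24.7% and 30.6% of tested TUs. In bulk libraries, less RNA per cell and fewer cells that make it cannot be told apart.

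**Figure D1:**
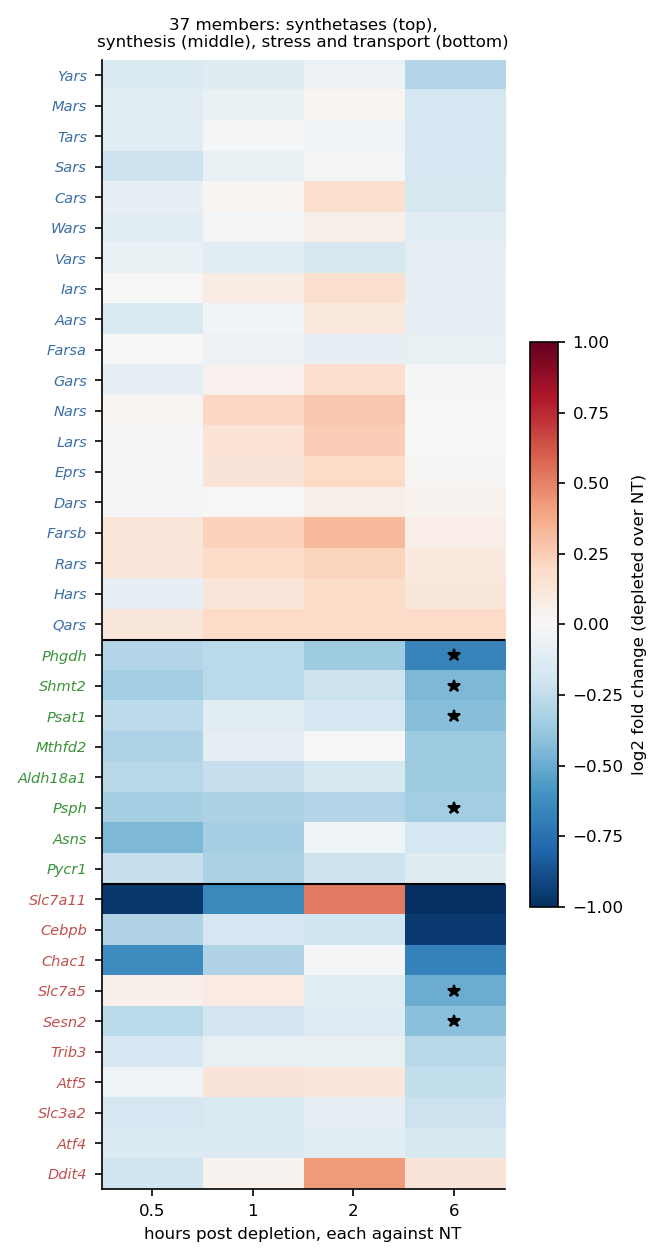
Log2 fold change of each of the 37 measured members (rows, coloured by class) against NT at 0.5, 1, 2 and 6 hpd (columns); blue is lower and red higher than NT, the scale ends at -1 and 1, and a star marks an adjusted p under 0.05. The 6 stars all lie in the column of 6 hpd, 4 among the synthesis genes and 2 among the stress and transport genes, and none among the synthetases.

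The median log2 fold change of the synthesis genes was -0.30, -0.27, -0.19 and -0.35 at 0.5, 1, 2 and 6 hpd, and that of the stress and transport genes -0.18, -0.15, -0.07 and -0.35. For the synthetases it was -0.06, 0.02, 0.16 and -0.08, and for all tested TUs -0.02, -0.04, -0.04 and -0.04. For tested TUs with a symbol it was 0.01, 0.02, 0.05 and 0.07. With 1 library left out, the synthetase median at 2 hpd was 0.0064 (2 hpd replicate 1), and the stress and transport median was -0.07 at 0.5 hpd (0.5 hpd replicate 1) and 0.09 at 2 hpd (NT replicate 1). All 8 synthesis genes were below 0 at each of the 4 times, where 53.4%, 54.9%, 53.9% and 53.0% of tested TUs were below 0, and all 4 times share the same 2 NT libraries. At 0.5 hpd both depleted libraries lay below both NT libraries for 8 of 8 synthesis genes, 4 of 10 stress and transport genes and 5 of 19 synthetases, against 19.0% of tested TUs. The difference between classes was not tested.

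**Figure D2:**
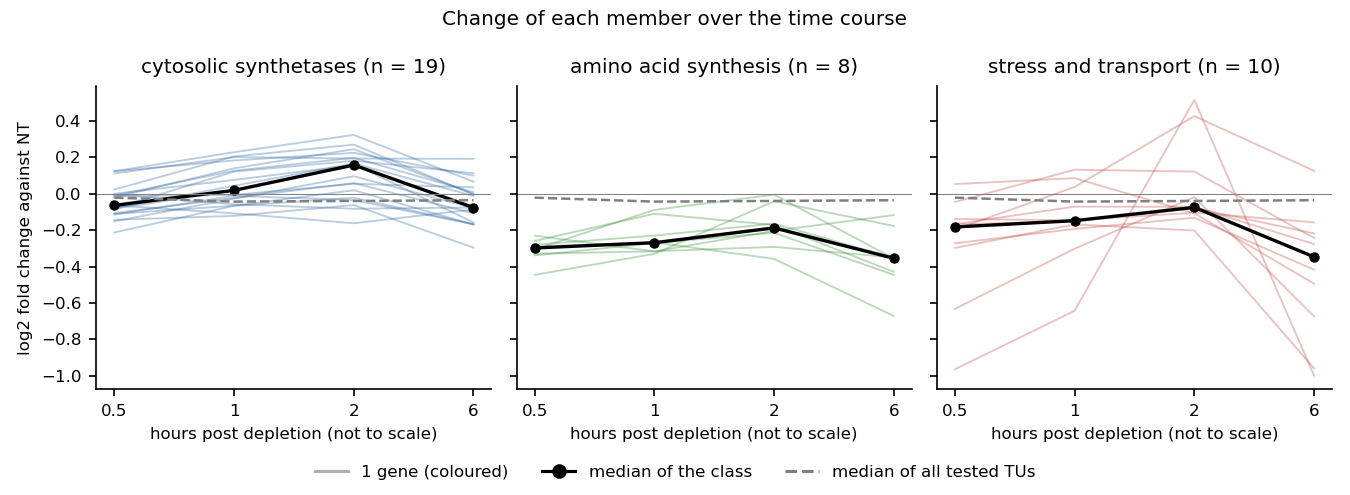
Log2 fold change against NT (y axis) at 0.5, 1, 2 and 6 hpd (x axis, evenly spaced and not to scale) for 19 synthetases, 8 synthesis genes and 10 stress and transport genes; thin lines are genes, the black line with points is the class median, and the dashed line is the median of all tested TUs. The synthesis median lies between -0.19 and -0.35 throughout, and the synthetase median between -0.08 and 0.16.

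All 19 measured synthetases were transcribed well above the filter, with 558.2 to 5840 fragments per library on average. Per kilobase of TU, so that genes can be compared, their level in NT ran from 1.32 CPM in Hars to 7.35 CPM in Aars, with a median of 3.48. Their log2 fold changes lay between -0.21 and 0.12 (0.5 hpd), -0.12 and 0.23 (1 hpd), -0.16 and 0.32 (2 hpd), and -0.30 and 0.19 (6 hpd). Over the 19 genes, the 95% intervals of these changes reached down to decreases of 27.9%, 22.9%, 25.7% and 29.4% and up to increases of 34.1%, 44.2%, 54.0% and 34.5% in order of time, so changes up to that size were not excluded by the absence of calls. At an unadjusted p under 0.05 there were 0, 0, 3 and 1 synthetases at the 4 times, and DESeq2 called 0 at each.

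Rars, which charges tRNA with arginine, had the smallest p of an upward difference at 1 hpd (chromosome 11, 35802875 to 35834528, minus strand). It had 113 and 111 CPM in NT, 124 and 120 (0.5 hpd), 126 and 128 (1 hpd), 138 and 123 (2 hpd), and 122 and 118 (6 hpd). All 8 depleted libraries lay above both NT libraries, but the log2 fold change was 0.18 ± 0.10 (SE) at 1 hpd (edgeR adjusted p 0.35) and 0.10 ± 0.10 at 6 hpd (edgeR adjusted p 0.53). Qars, the glutamine enzyme, had the smallest upward p at 6 hpd, with 318 and 308 CPM in NT, 355 and 320 (0.5 hpd), 363 and 356 (1 hpd), 390 and 326 (2 hpd), and 346 and 368 (6 hpd). Its groups did not overlap with NT at any time, and its log2 fold change at 6 hpd was 0.19 ± 0.11 (edgeR adjusted p 0.26). The Qars TU also covers at least 50% of Qrich1, and 84.9% of it lies outside the Qars transcript.

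Yars, the tyrosine enzyme, had the smallest p of a downward difference at both 1 and 6 hpd. Its libraries had 169 and 155 CPM in NT, 144 and 150 (0.5 hpd), 146 and 152 (1 hpd), 156 and 155 (2 hpd), and 136 and 129 (6 hpd). Only replicate 1 of 2 hpd reached the range of NT, and the other depleted libraries lay below both NT libraries. At 6 hpd the log2 fold change was -0.30 ± 0.10, with an adjusted p (edgeR) of 0.051 that just missed the threshold. The next synthetases at 6 hpd, Cars, Mars, Tars and Sars, had log2 fold changes of -0.16 to -0.17. At 2 hpd the 3 synthetases with an unadjusted p under 0.05 were Farsb, a subunit of the phenylalanine enzyme (log2 fold change 0.32), Nars, the asparagine enzyme (0.27), and Rars (0.22).

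Among the regulators, Atf4 was the member with the most nascent RNA per kilobase of TU, 15.1 CPM in NT, though 79.4% of its TU lies outside the Atf4 transcript. Its libraries had 166 and 181 CPM in NT, 145 and 170 (0.5 hpd), 150 and 163 (1 hpd), 145 and 178 (2 hpd), and 164 and 146 (6 hpd). Both replicates lay below NT at 1 and 6 hpd, with log2 fold changes of -0.15 ± 0.12 and -0.16 ± 0.12 (edgeR adjusted p 0.58 and 0.42, and -0.06 and -0.07 without NT replicate 2), and the groups overlapped at 0.5 and 2 hpd. Atf5, a related factor, had 12.99 and 11.6 CPM in NT, 10.97 and 13.1 (0.5 hpd), 14.2 and 12.7 (1 hpd), 12.9 and 13.9 (2 hpd), and 11.4 and 9.43 (6 hpd), where its log2 fold change was -0.24 ± 0.16 (edgeR adjusted p 0.32). With 1 library left out, the Atf5 value at 6 hpd ran from -0.37 to -0.11. Its groups overlapped with NT except at 6 hpd, and 77.6% of its TU lies outside the Atf5 transcript.

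Cebpb, which encodes a C/EBP partner of ATF4, was barely transcribed, with 11.9 fragments per library on average. It had 0.942 and 0.799 CPM in NT, 0.624 and 0.855 (0.5 hpd), 0.753 and 0.797 (1 hpd), 0.809 and 0.701 (2 hpd), and 0.421 and 0.466 (6 hpd). The libraries of 6 hpd were the lowest (log2 fold change -0.96 ± 0.44, edgeR adjusted p 0.15), but a change of this size was not separable from the spread at this depth. Ddit3 could not be read by itself.

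Slc7a5, a subunit of the exchanger that imports leucine and other large neutral amino acids, had the smallest p of the members at 6 hpd. Its TU (chromosome 8, 121858127 to 121908175, minus strand) had 130 and 116 CPM in NT, 124 and 132 (0.5 hpd), 132 and 129 (1 hpd), 115 and 113 (2 hpd), and 89.4 and 85.2 (6 hpd). The level overlapped with NT for the first hour, and both libraries of 6 hpd lay below the other 8. The fall was 29.0% at 6 hpd (log2 fold change -0.49 ± 0.10, edgeR adjusted p 0.0035), and it remained called when any 1 of the 10 libraries was left out. Slc3a2, the partner chain of the exchanger, had a log2 fold change of -0.22 ± 0.10 at 6 hpd (edgeR adjusted p 0.15), with both libraries below NT at each time and 94.9% of its TU outside the Slc3a2 transcript.

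Sesn2 encodes a leucine sensor that restrains mTORC1 and is a known ATF4 target. Its TU (chromosome 4, 132477665 to 132515529, minus strand) had 198 and 174 CPM in NT, 151 and 157 (0.5 hpd), 160 and 165 (1 hpd), 165 and 174 (2 hpd), and 138 and 141 (6 hpd). The lowest values came at 6 hpd, where it fell by 0.42 ± 0.10 on the log2 scale (edgeR adjusted p 0.011), and all groups but 2 hpd lay below both NT libraries. This call was lost without NT replicate 1 (log2 fold change -0.30) or without replicate 1 or 2 of 6 hpd (-0.39 and -0.43, all in edgeR).

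Chac1, an ATF4 target that breaks down glutathione, had 23.7 and 13.95 CPM in NT, 12.7 and 11.5 (0.5 hpd), 16.9 and 13.7 (1 hpd), 20.3 and 16.9 (2 hpd), and 14.8 and 9.03 (6 hpd). The 2 NT libraries were as far apart as the groups, and the log2 fold changes of -0.63 ± 0.24 at 0.5 hpd and -0.67 ± 0.24 at 6 hpd were not called (edgeR adjusted p 0.32 and 0.072). With 1 library left out they ran from -0.95 to -0.19 and from -1.05 to -0.22, the weakest without NT replicate 1, and Chac1 was called at 6 hpd without NT replicate 2 or without replicate 1 of 6 hpd. Slc7a11, the cystine importer, held 16.8 fragments per library on average in a TU that covers 23.3% of its transcript, and had 1.62 and 0.799 CPM in NT, 0.585 and 0.684 (0.5 hpd), 0.878 and 0.683 (1 hpd), 2.22 and 1.23 (2 hpd), and 0.632 and 0.582 (6 hpd). It was the lowest member per kilobase, at 0.066 CPM in NT. Chac1 and Slc7a11 both had their lowest means at 0.5 and 6 hpd and a higher one at 2 hpd, and neither was called at any time.

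Ddit4, an mTORC1 inhibitor induced by several stresses, had the highest log2 fold change of its class at 2 hpd after Slc7a11. It had 12.8 and 12.2 CPM in NT, 9.29 and 12.9995 (0.5 hpd), 11.7 and 13.9 (1 hpd), 14.9 and 18.8 (2 hpd), and 14.4 and 12.9 (6 hpd). Both libraries lay above NT at 2 hpd (log2 fold change 0.43 ± 0.17, edgeR adjusted p 0.14, and 0.24 without 2 hpd replicate 2) and at 6 hpd (0.13 ± 0.18, edgeR adjusted p 0.67). Trib3, a pseudokinase that restrains ATF4, overlapped with NT at all 4 times, with a log2 fold change of -0.28 ± 0.19 at 6 hpd (edgeR adjusted p 0.34).

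**Figure D3:**
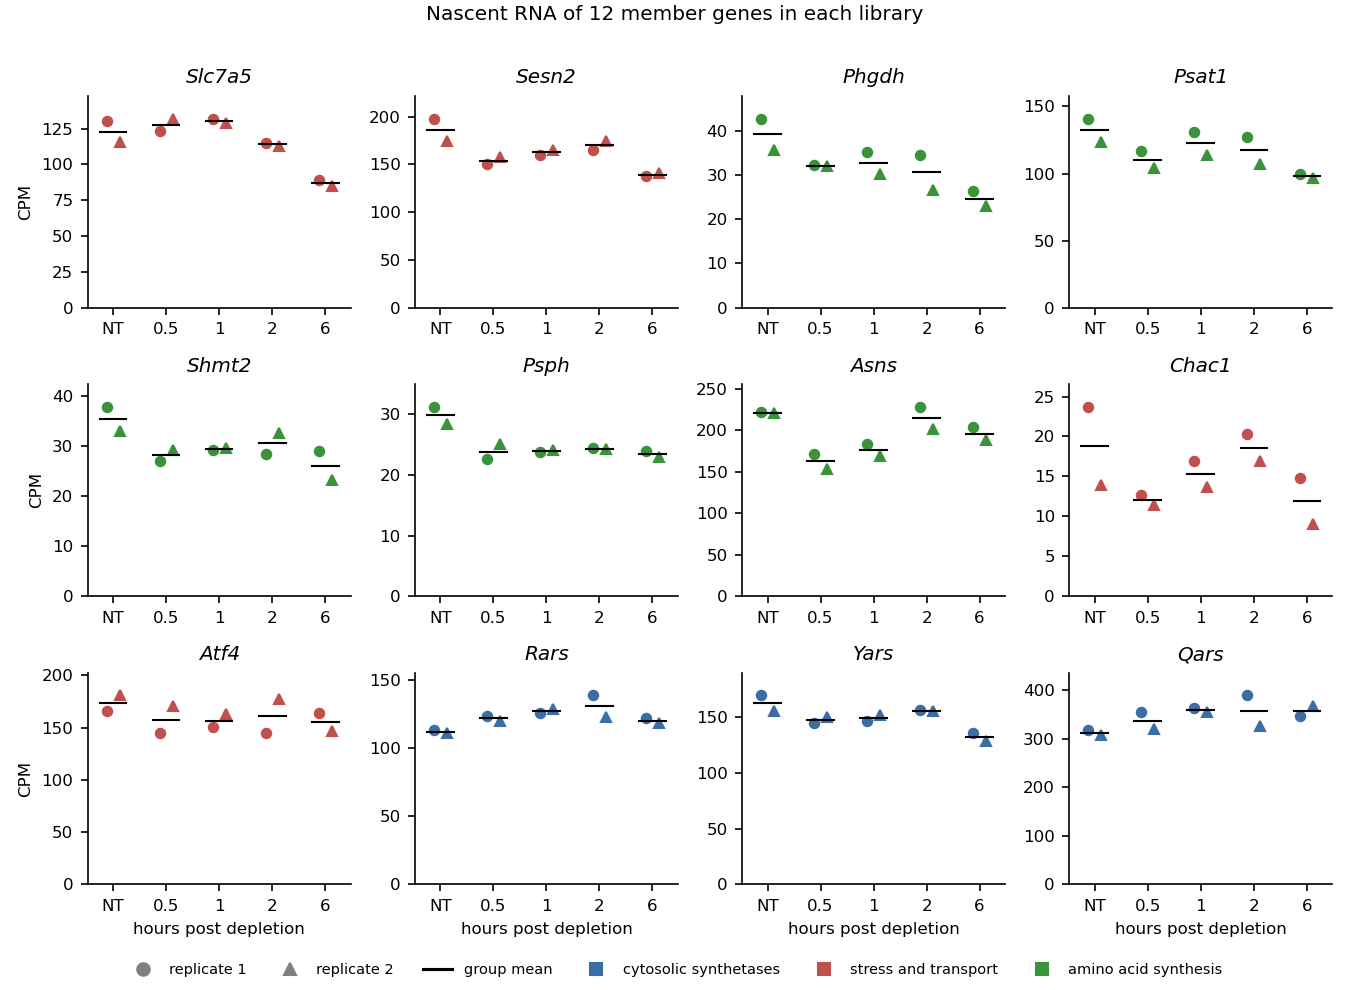
Nascent RNA in CPM (y axes, from 0) of 12 members in each library of NT and of 0.5, 1, 2 and 6 hpd (x axes); circles are replicate 1, triangles replicate 2, and bars the mean of the 2. Slc7a5 is flat to 1 hpd and lowest at 6 hpd (89.4 and 85.2 CPM), Asns is lowest at 0.5 hpd (171 and 153 CPM), and the synthetases Rars, Yars and Qars have no call at any time.

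The 3 enzymes of serine synthesis fell at 6 hpd, and they act in the order Phgdh, Psat1, Psph on an intermediate of glycolysis. Phgdh (chromosome 3, 98310937 to 98339958, minus strand) had 42.7 and 35.7 CPM in NT, 32.2 and 32.0 (0.5 hpd), 35.1 and 30.1 (1 hpd), 34.5 and 26.6 (2 hpd), and 26.3 and 23.0 (6 hpd). Every depleted library lay below both NT libraries, and at 6 hpd the level fell by 37.2% (log2 fold change -0.67 ± 0.14, edgeR adjusted p 0.0050), the largest decrease among the 6 called members. The call was lost without NT replicate 1 (log2 fold change -0.52) or without 6 hpd replicate 2 (-0.57, both in edgeR).

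Psat1 (chromosome 19, 15896303 to 15925082, minus strand) had 141 and 123 CPM in NT, 116 and 104 (0.5 hpd), 131 and 114 (1 hpd), 127 and 107 (2 hpd), and 99.7 and 96.7 (6 hpd). The libraries of 1 and 2 hpd overlapped with NT, and those of 6 hpd were the lowest (log2 fold change -0.43 ± 0.12, edgeR adjusted p 0.024). Psph (chromosome 5, 129759942 to 129787189, minus strand) had 31.2 and 28.4 CPM in NT and 22.6 to 25.1 CPM in the 8 depleted libraries. The log2 fold change was already -0.33 ± 0.11 at 0.5 hpd (edgeR adjusted p 0.24), and it was called only at 6 hpd (-0.35 ± 0.11, edgeR adjusted p 0.049). The Psat1 call was lost without NT replicate 1 (log2 fold change -0.31) or without replicate 1 or 2 of 6 hpd (-0.44 and -0.41). The Psph call was lost when any 1 library other than 2 hpd replicate 1 was left out. Its log2 fold change was then -0.26 without NT replicate 1 and -0.40 without NT replicate 2. Where the library left out was of 0.5, 1 or 2 hpd and the call was lost, it stayed at -0.33 to -0.35.

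Shmt2 and Mthfd2 carry serine into the mitochondrial one-carbon pathway. Shmt2 (chromosome 10, 127511998 to 127522637, minus strand) had 37.8 and 33.1 CPM in NT, 27.0 and 29.2 (0.5 hpd), 29.2 and 29.6 (1 hpd), 28.5 and 32.7 (2 hpd), and 29.1 and 23.1 (6 hpd). All depleted libraries lay below NT, and the gene was called at 6 hpd (log2 fold change -0.45 ± 0.13, edgeR adjusted p 0.032). This call was lost without 6 hpd replicate 2, the lowest library (log2 fold change -0.29), without NT replicate 1 or 2 (-0.33 and -0.52), and without 1 hpd replicate 1 (-0.45). With 1 library left out the log2 fold change ran from -0.60 to -0.29. Mthfd2 had 68.1 and 56.5 CPM in NT, 51.4 and 49.3 (0.5 hpd), 62.9 and 54.3 (1 hpd), 65.5 and 58.7 (2 hpd), and 48.9 and 48.5 (6 hpd), so that it lay below NT at 0.5 and 6 hpd and overlapped in between. Its log2 fold change at 6 hpd was -0.36 ± 0.12 (edgeR adjusted p 0.053), and ran from -0.46 to -0.20 with 1 library left out.

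Asns, the asparagine synthetase, whose promoter holds a core 23 bases upstream of the start, had its lowest libraries at 0.5 and 1 hpd. Whether its course differed from that of the other synthesis genes was not tested. Per kilobase it was the highest of the synthesis genes, at 8.41 CPM in NT, and its TU (chromosome 6, 7668984 to 7695290, minus strand) had 222 and 221 CPM in NT, 171 and 153 (0.5 hpd), 183 and 169 (1 hpd), 228 and 202 (2 hpd), and 204 and 188 (6 hpd). The NT libraries were nearly equal, those of 0.5 and 1 hpd lay below all others, and those of 2 hpd overlapped with NT. The log2 fold change was -0.45 ± 0.11 at 0.5 hpd (edgeR adjusted p 0.057), -0.33 ± 0.11 at 1 hpd (edgeR adjusted p 0.095), -0.04 ± 0.11 at 2 hpd and -0.18 ± 0.11 at 6 hpd (edgeR adjusted p 0.28). Pycr1 and Aldh18a1, which make proline, had log2 fold changes of -0.12 ± 0.12 and -0.35 ± 0.12 at 6 hpd (edgeR adjusted p 0.53 and 0.068). The TU of Pycr1 also covers at least 50% of Mafg.

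The joint test asked whether a member changed at any of the 4 times. It called 3 of 37 members, Slc7a5 (adjusted p 0.0053), Asns (0.035) and Phgdh (0.049, all in edgeR), against 12.3% of tested TUs, and 0 of 19 synthetases. With the replicate number as a block it called more members (given below). The 3 calls of the fit without a block did not all hold when 1 library was left out. With 1 library left out the joint test called 0 to 4 members: none without 6 hpd replicate 2, where Slc7a5 was lost too, and 1 without NT replicate 1, 0.5 hpd replicate 2, either library of 1 hpd or 6 hpd replicate 1.

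Contrasts between depleted groups do not use the NT levels, though the fit shares its scaling and its estimate of spread with the NT libraries. Slc7a5 fell between 1 and 6 hpd (log2 fold change -0.58 ± 0.10, edgeR adjusted p 0.0030), and it was the only member called there, where 2.92% of tested TUs were called down. Between 0.5 and 1, 1 and 2, and 2 and 6 hpd, edgeR called 0 members and DESeq2 0, where 0.109%, 0.218% and 0.777% of tested TUs were called. At an unadjusted p under 0.05 there were 0, 3 and 11 of 37 members, beside 5.34%, 5.8% and 11.2% of tested TUs. From 2 to 6 hpd, 34 of 37 members had a log2 fold change below 0, with a median of -0.17 for synthetases, -0.33 for stress and transport genes and -0.21 for synthesis genes, where 52.4% of tested TUs were below 0 and their median was -0.02. Without 2 hpd replicate 1 the synthetase and synthesis medians were -0.05 and -0.12, and without 6 hpd replicate 2 the synthesis median was -0.09. From 0.5 to 1 hpd, 33 of 37 members were above 0, with a median of 0.10, where 51.9% of tested TUs were below 0.

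Fewer members were called at 6 hpd against NT without NT replicate 1 or without 6 hpd replicate 2, fits that keep 1 library in a compared group. Without NT replicate 1, 1 of 10 stress and transport genes (Slc7a5) and 0 of 8 synthesis genes were called at 6 hpd, and their medians were -0.21 and -0.23. Without 6 hpd replicate 2 the counts were likewise 1 (Slc7a5) and 0, with medians of -0.26 and -0.30, and without 6 hpd replicate 1 or 1 hpd replicate 1 there were 2 stress and transport and 2 synthesis genes. Without NT replicate 1 the synthetase median turned from -0.06 to 0.06 at 0.5 hpd, and at 6 hpd from -0.08 to 0.06, while the stress and transport median was 0.03 and 0.09 at 1 and 2 hpd in place of -0.15 and -0.07. Without NT replicate 2, 3 stress and transport genes and 4 synthesis genes were called at 6 hpd, with medians of -0.49 and -0.47. The synthesis medians stayed below 0 at all 4 times with either NT library left out, between -0.09 and -0.23 without replicate 1 and between -0.30 and -0.47 without replicate 2.

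**Figure D4:**
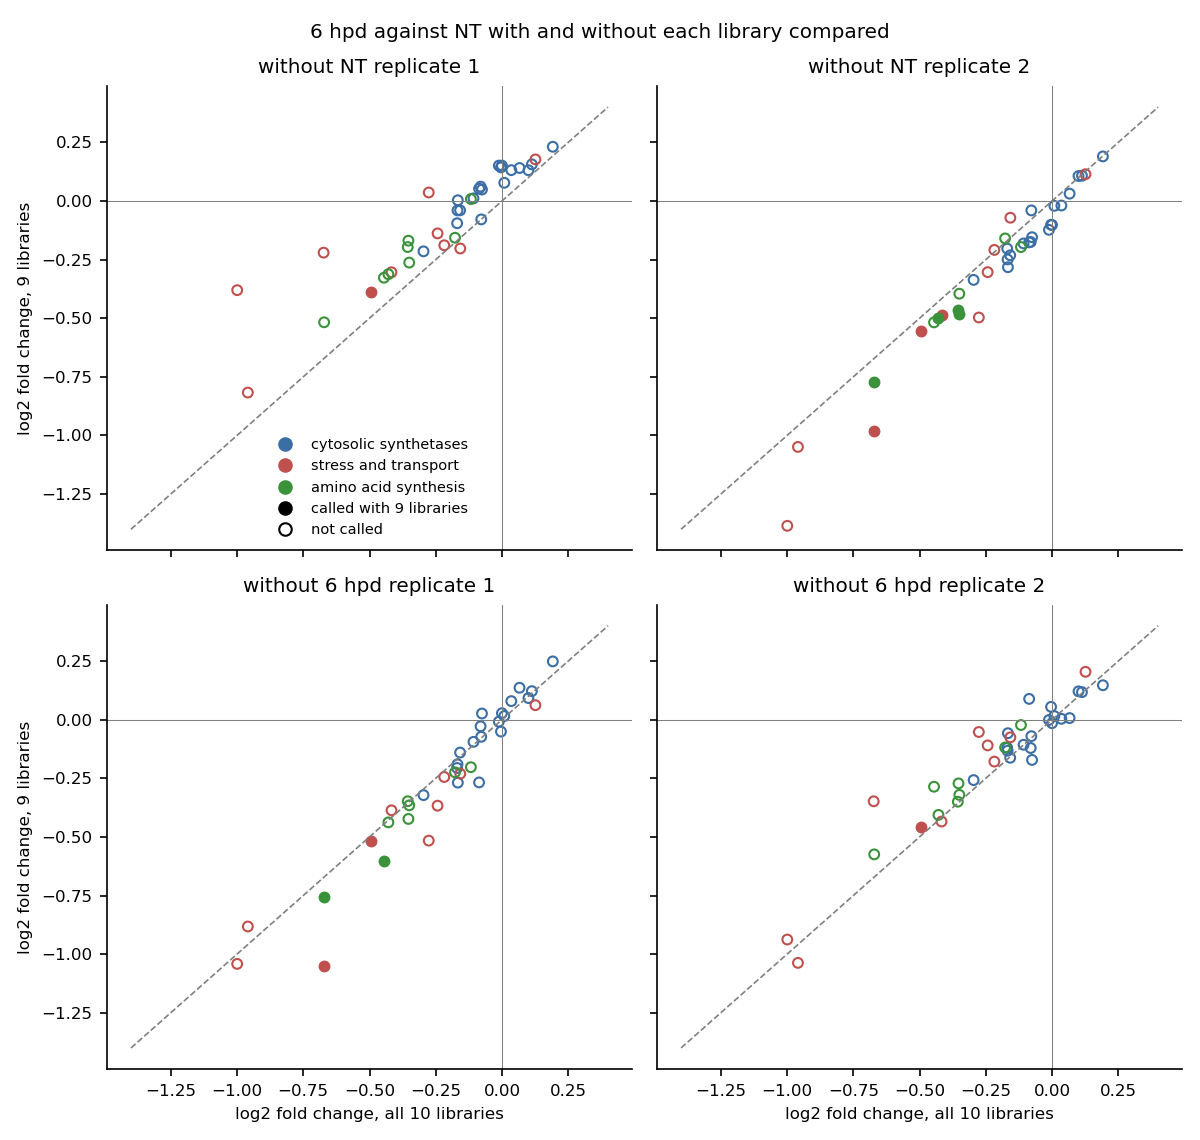
Log2 fold change at 6 hpd of the 37 members from all 10 libraries (x axes) and from 9 libraries (y axes), leaving out NT replicate 1 or 2 (top) or 6 hpd replicate 1 or 2 (bottom); points are genes coloured by class, filled where called with 9 libraries, and the dashed line marks equal values. Without NT replicate 1 nearly all points lie above the line, and Slc7a5 is the only filled point there (at -0.39) and without 6 hpd replicate 2.

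Genes near the members in the pathway were read from further lists. Mitochondrial synthetases, listed with the subunits Gatb, Gatc and Qrsl1 of the mitochondrial amidotransferase, had 0 of 19 called at each time in edgeR (0, 0, 1 and 2 at an unadjusted p under 0.05, and 1 by DESeq2, at 2 hpd), with medians of -0.02, -0.02, -0.06 and 0.04. Leaving out 1 library gave 0 to 2 calls up at 2 hpd (2 without 2 hpd replicate 2, 1 without either library of 0.5 hpd) and 0 to 1 at 6 hpd (1 without 0.5 hpd replicate 2 or either library of 2 hpd). The 3 scaffold proteins of the synthetase complex had 0 called at each time in edgeR and in DESeq2, and 0 at an unadjusted p under 0.05. Of 16 genes for eIF2, its exchange factor eIF2B, its kinases and phosphatase and the GCN2 regulators Gcn1l1 and Impact, 1 was called up at 2 hpd, where 4.26% of tested TUs were, the kinase GCN2 itself (Eif2ak4, log2 fold change 0.40 ± 0.11, edgeR adjusted p 0.036, chosen after its value was seen). Without either NT library, either library of 1 hpd, 2 hpd replicate 1 or 6 hpd replicate 2, 0 of the 16 were called up at 2 hpd, and without 2 hpd replicate 2 there were 3. At 6 hpd 1 was called up and 1 down, beside 6.61% and 9.2% of tested TUs. The kinase PERK (Eif2ak3), which senses stress of the endoplasmic reticulum, rose from 85.0 and 74.6 to 118 and 99.99 CPM (log2 fold change 0.45 ± 0.12, edgeR adjusted p 0.021). The phosphatase subunit Ppp1r15a fell from 24.0 and 22.5 to 17.2 and 16.01 CPM (-0.49 ± 0.13, edgeR adjusted p 0.022). The Eif2ak3 call was lost without NT replicate 2 or 6 hpd replicate 1 (edgeR adjusted p 0.17 for both), and that of Ppp1r15a without any 1 of the 4 libraries compared (0.077 to 0.15, edgeR adjusted p).

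Other ATF4-type targets moved in both directions. Of 24 tested, 1 was called up and 2 down at 0.5, 1 and 2 hpd, and 1 up and 6 down at 6 hpd, beside 0.527%, 2.15%, 4.26% and 6.61% of tested TUs called up and 0.787%, 3.61%, 5.57% and 9.2% down in order of time, with medians of -0.24, -0.12, -0.01 and -0.23. With 1 library left out, 1 to 2, 1 to 3, 1 to 2 and 3 to 8 were called down at the 4 times, with 3 at 6 hpd without NT replicate 1 or without 6 hpd replicate 2. The gene called up was Atf3 at each time, a repressor induced by many stresses, with 13.2 and 10.7 CPM in NT, 16.9 and 20.2 (0.5 hpd), 25.8 and 27.7 (1 hpd), 37.01 and 35.01 (2 hpd), and 31.4 and 28.9 (6 hpd). Its call at 0.5 hpd held in 2 of the 10 fits that left out 1 library, those without a library of 2 hpd, and was lost in the others (edgeR adjusted p 0.056 to 0.34), while those at 1, 2 and 6 hpd held in 10 of 10. The largest decrease among the called genes of the list was at each time in Slc7a3, an importer of arginine and lysine, with 18.0 and 18.8 CPM in NT, 9.44 and 7.53 (0.5 hpd), 10.3 and 9.96 (1 hpd), 12.4 and 11.6 (2 hpd), and 8.99 and 7.86 (6 hpd). Its log2 fold changes in order of time were -1.10 ± 0.15, -0.86 ± 0.15, -0.61 ± 0.14 and -1.13 ± 0.15. The NT libraries were nearly equal, and Slc7a3 was called at each time (at 2 hpd not without NT replicate 2 or without either library of 2 hpd, edgeR adjusted p 0.050 to 0.093), as was Cth, which makes cysteine (log2 fold change -0.86 ± 0.12 at 6 hpd, chosen after its value was seen). The Cth call at 0.5 hpd was lost when either NT library or either library of 0.5 hpd was left out, and that at 1 hpd when NT replicate 1 or either library of 1 hpd was.

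Of 11 further one-carbon and folate enzymes, 2 fell at 6 hpd, where 9.2% of tested TUs did, and none was called earlier in edgeR or in DESeq2 (0, 0 and 2 at an unadjusted p under 0.05). Aldh1l1, a cytosolic folate enzyme, went from 21.3 and 17.9 CPM in NT to 12.2 and 10.8 at 6 hpd (log2 fold change -0.77 ± 0.14, edgeR adjusted p 0.0014), and the other was Shmt1, the cytosolic counterpart of Shmt2 (-0.38 ± 0.10, chosen after its value was seen), whose call was lost without NT replicate 2 or 6 hpd replicate 1. Genes of the neighbouring unfolded protein response, listed as chaperones of the endoplasmic reticulum with the factor Xbp1 and the degradation genes Sel1l, Syvn1 and Edem1, were called upward only. Of 15 tested, 0, 1, 2 and 4 rose and 0 fell at the 4 times, beside 0.527%, 2.15%, 4.26% and 6.61% of tested TUs called up, with medians of 0.02, 0.20, 0.31 and 0.28. Of the 14997 tested TUs with a symbol, 125, 532, 1032 and 1556 were called up at these times. With 1 library left out the counts that rose were 0 to 2 at 1 hpd (0 without NT replicate 2 or either library of 1 hpd), 2 to 4 at 2 hpd (4 without 0.5 hpd replicate 2 or 2 hpd replicate 2) and 1 to 4 at 6 hpd, where 1 was left when NT replicate 2 or replicate 1 of 6 hpd was dropped. At 0.5 hpd DESeq2 also called 0 of them and 0 had an unadjusted p under 0.05. Hsp90b1 went from 205 and 177 CPM in NT to 258 and 263 at 1 hpd (log2 fold change 0.45 ± 0.11, edgeR adjusted p 0.020, lost without NT replicate 2 or either library of 1 hpd), and Dnajc3, a co-chaperone that also inhibits eIF2 kinases, from 48.2 and 48.8 to 85.2 and 70.6 at 6 hpd (0.68 ± 0.12, edgeR adjusted p 9.4e-04).

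**Figure D5:**
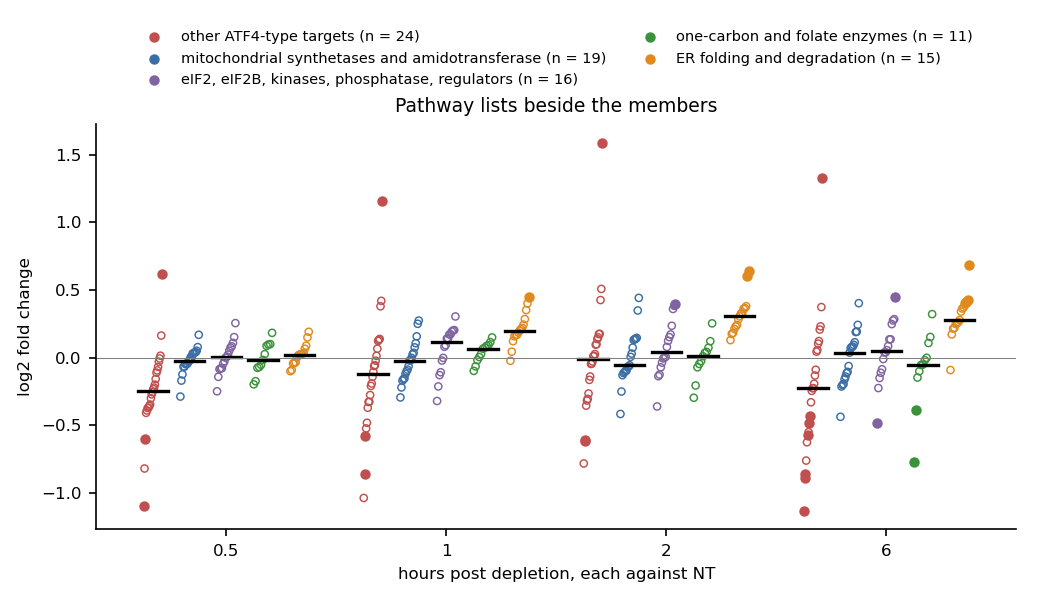
Log2 fold change against NT (y axis) at 0.5, 1, 2 and 6 hpd (x axis) of the genes of 5 lists; points are genes, filled where the adjusted p is under 0.05, and bars are list medians. The ATF4-type targets hold the highest point (Atf3) at each time, and the median of the endoplasmic reticulum genes is 0.02 at 0.5 hpd and 0.31 at 2 hpd.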

How the data were processed

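TT_chem-seq libraries came from 10 samples in 5 groups of 2. The authors deposited raw fragment counts per TU: per the methods of the study and the submitters' processing notes, reads were aligned to mm10 with BWA 0.7.17-r1188, filtered with SAMtools 1.10, freed of duplicates with Picard 2.12.0 and split by strand, and TUs were called on pooled data with a hidden Markov model of 2 states. A TU can run beyond its gene: 13 of 37 member TUs lay by more than 50% outside the annotated transcript, and 5 held at least 50% of another gene on their strand. The 13 included 7 of the 10 stress and transport TUs. Among members called at 6 hpd they included Sesn2 (53.4% outside) and Psph (52.2%). The filter of the study (over 10 fragments in 2 or more libraries) was kept, and the counts were fitted in edgeR 4.0.16 (R 4.3.3) with TMM factors, 1 coefficient per group and no covariate. SE is the log2 fold change over the square root of F. CPM used TMM factors. Depth per library was 11131490 to 25854106 fragments, and intervals cover the spread between these libraries. No replicate pair was a duplicate (chi-square per degree of freedom 2.69 to 9.03).

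The members, classes and lists were chosen with earlier results of these data known. Values in each library are given for the regulators, the 10 members with the smallest p over the 4 times, members called at 6 hpd, and, for 1 and 6 hpd, the synthetase that came first by p among those up and among those down; from each further list, the called gene that came first in the same way is named. The procedure was tested on simulated data. Alternatives were DESeq2 1.42.0, RLE factors, library totals, testing without a filter, keeping TUs with 50 or more counts on average, the replicate number as a block, only the libraries compared, and each library left out. Of the deposited columns of samples, 0 were left unused. The promoter sequence of 1 member with a match is not reported here.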

Additional observations from a re-analysis of the deposited data

Results flagged for a closer look

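Slc7a5 differed between times of depletion: its log2 fold change from 1 to 6 hpd was -0.58 ± 0.10 (edgeR adjusted p 0.0030), from 132 and 129 CPM to 89.4 and 85.2 CPM. In this fit it was the only member called between 2 depleted groups, and leaving out any 1 library gave values from -0.62 to -0.55, each of them called. DESeq2 gave -0.58 (adjusted p 1.0e-04). The summed stem cell markers ran from 3988 to 4392 CPM at 1 hpd and from 3816 to 4063 CPM at 6 hpd, and their part in the difference was not tested.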

How the results depend on the processing

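Slc7a5 kept its calls at 6 hpd against NT and against 1 hpd in all 17 alternatives, and lost its joint call without 6 hpd replicate 2. The calls of the other 5 members were each lost in some fits that left out 1 library (given beside them). A fit without a library of a compared group keeps 1 there, so a lost call need not mean a smaller change. Psat1 was at -0.44 and -0.41 without replicate 1 or 2 of 6 hpd, and at -0.43 in the main fit. Shmt2 was weakest, at -0.29, without 6 hpd replicate 2. The cause was not tested. With library totals only, which moved the median of all tested TUs by -0.12 at 2 hpd, 4 stress and transport and 7 synthesis genes fell at 6 hpd, 1 synthetase fell at 6 hpd, 1 synthesis gene fell at 0.5, at 1 and at 2 hpd, and the joint test called 6. DESeq2 called 2 synthesis genes at 6 hpd and 1 at 0.5 hpd, and 2 were called at 6 hpd without a count filter. With a mean of at least 50 counts, 1 synthetase and 6 synthesis genes fell at 6 hpd, 1 synthesis gene at 0.5 and at 1 hpd, 1 member from 2 to 6 hpd, and the joint test called 5. With only the libraries compared, 1 synthetase rose at 1 hpd, and 1 synthetase, 3 stress and transport and 5 synthesis genes fell at 6 hpd, 1 synthesis gene fell at 1 hpd and 3 members fell from 1 to 6 hpd. RLE factors left 1 joint call. Leaving out 1 library at a time gave 0 to 1 synthetases up at 2 hpd and down at 6 hpd, 1 to 3 stress and transport genes down at 6 hpd, 0 to 1 synthesis genes down at 0.5 and at 1 hpd and 0 to 5 at 6 hpd, and 0 to 4 joint calls.

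The main fit did not pair libraries by replicate number. Deviations of same-numbered libraries correlated at 0.054 to 0.66 over 10 pairs of groups, 8 of them over 0.1, and 10 of 10 libraries correlated best with one of their own number. An effect shared by libraries of the same number was therefore not modelled in the main fit. The fit with a replicate block gave further calls: 1 synthetase, 3 stress and transport and 6 synthesis genes fell at 6 hpd, 1 stress and transport gene fell at 0.5 hpd and 1 rose at 2 hpd, 1 synthesis gene fell at 0.5 and at 1 hpd and 2 at 2 hpd, 4 members fell from 2 to 6 hpd and 3 from 1 to 6 hpd, and the joint test called 10.

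Only log2 fold changes that were not called changed sign. Over the fits that left out 1 library, Atf4 at 2 hpd ran from -0.27 to 0.036, Atf5 at 0.5 hpd from -0.15 to 0.091, Slc7a5 at 0.5 hpd from -0.026 to 0.14, and Asns at 2 hpd from -0.13 to 0.031. Mthfd2 ran from -0.20 to 0.070 at 1 hpd and -0.13 to 0.14 at 2 hpd, Psat1 at 1 hpd from -0.22 to 0.0054, and Chac1 from -0.61 to 0.15 at 1 hpd and -0.34 to 0.41 at 2 hpd. Ddit4 ran from -0.42 to 0.056 at 0.5 hpd and -0.092 to 0.15 at 1 hpd, and Yars at 2 hpd from -0.12 to 0.00060. At 2 hpd Mthfd2 was 0.027 with RLE factors, 0.027 with DESeq2 and 0.0023 without a filter, and Chac1 was 0.012, 0.013 and, with the block, 0.00095. With library totals only, Slc7a5 and Ddit4 at 1 hpd were -0.0021 and -0.050. Cebpb and Slc7a11, with under 20 fragments per library on average, could show only large changes at this depth.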

Other observations

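The units over the 2 members without a TU of their own gave values that belong to several genes at once. The unit over Kars and Adat1 (chromosome 8, 111948790 to 112011350, minus strand, 62.6 kb) had 105 to 121 CPM over the 10 libraries, and its log2 fold changes in order of time were 0.05, 0.09, 0.03 and -0.07, and the unit over Dctn2 and Ddit3 (chromosome 10, 127266297 to 127304626, plus strand, 38.3 kb) had 88.9 to 105 CPM, with -0.03, -0.04, 0.02 and 0.00. Neither was called at any time in edgeR (lowest adjusted p 0.67 and 0.89).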
